A study of Arabidopsis thaliana with 4 samples.

Results

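The high-score nucleosome calls of the chromosome arms of Arabidopsis thaliana numbered 4155 among the 1253289 nucleosome calls of 4 libraries, and are described here by their position, shape and score in Ler and top1a-2. A high-score call was a call with a deposited confidence score of 3 or more that lay over 2.5 Mb from the midpoint of its chromosome's pericentromere, taken as 15, 3.6, 14, 4 and 12 Mb on chromosomes 1 to 5. High-score calls of the 4 lists that lay within 5 kb of each other were joined into blocks. The score therefore chose the calls and the blocks, and scores of high-score calls and blocks are given below as a description, with no test except in a library that was left out of the choice. All coordinates are taken as the deposited lists give them, and their genome build was not among the facts known here, so no gene or sequence is named at them.

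The chromatin came from inflorescences that held unopened buds, collected from plants labelled Ler and from plants labelled top1a-2, with the ecotype Landsberg erecta given for every library. Ler served as the comparison for top1a-2, a mutant of TOP1α, and each genotype had 2 libraries. Nuclei were digested with micrococcal nuclease (MNase), and the gel band of about mononucleosome length was cut out and sequenced. The labels do not say whether the replicates came from separate plants or pools, so every p-value reflects just the spread among these samples, and that spread may be technical. An inflorescence holds many cell types, and the lists hold neither RNA nor genotype calls, so neither the tissue nor the mutation could be checked in them.

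MNase cuts the linker DNA between nucleosomes and leaves the DNA wrapped around the histone octamer, so each call marks a place where protected fragments pile up. The lists do not define their columns: fuzziness is read here as the spread of fragments around a call, size as the length assigned to the protected DNA, and forward and reverse votes as the weight of reads from each strand. DNA topoisomerase I, the enzyme that TOP1α encodes, relaxes supercoiled DNA by nicking and resealing a strand, and wrapping and unwrapping of nucleosomes changes the supercoiling of DNA.

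High-score calls were rare on the arms. There were 818 and 1299 in Ler replicates 1 and 2 and 967 and 1071 in top1a-2 replicates 1 and 2. They made up 0.319%, 0.562%, 0.351% and 0.417% of the arm calls of these libraries. The Ler libraries were the lowest and the highest of the 4, so the top1a-2 libraries lay between them. In pericentromeres a score of 3 or more was several times more frequent, at 2.38% and 2.21% of calls in Ler and 2.87% and 2.51% in top1a-2.

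The threshold stood at 3.47, 3.56, 3.63 and 3.8 times the arm median score of Ler replicate 1, Ler replicate 2, top1a-2 replicate 1 and top1a-2 replicate 2. Most high-score calls lay close to it, with 62.5%, 67.4%, 58.9% and 64.0% between 3 and 3.5 in the same order. Just inside it, between 3 and 3.1, were 172, 254, 180 and 205 calls, and just outside it, between 2.9 and 3, were 210, 317, 241 and 268. No gap in score set the high-score calls apart from the calls below them. The sum of the forward and reverse votes had a median 7.87 to 9.43 times that of other arm calls, and across arm calls score and vote sum had a Spearman correlation of 0.914 to 0.932, so the votes were counted as part of the choice.

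**Figure D1:**
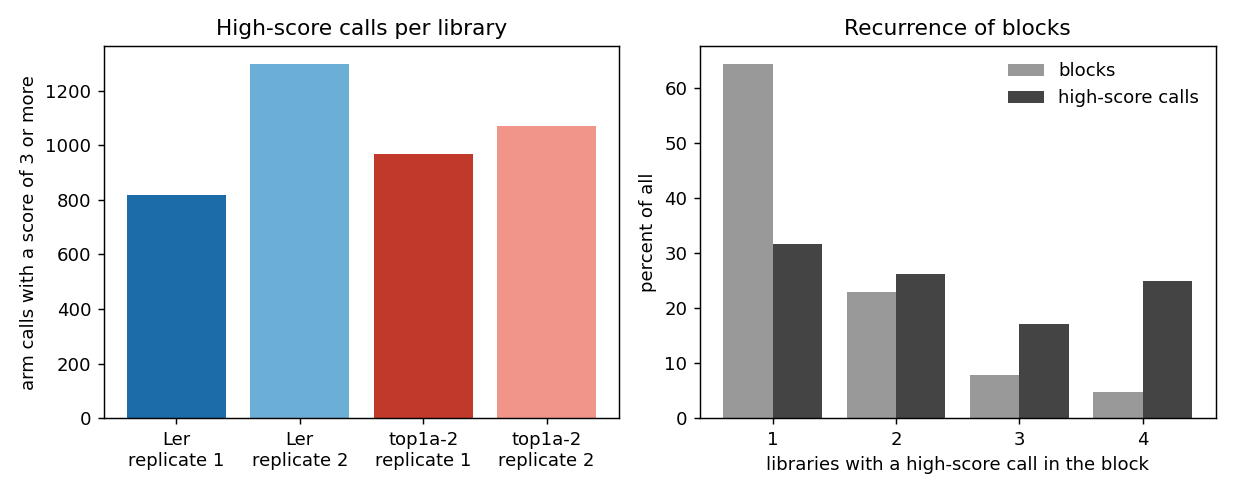
The left panel plots the number of high-score arm calls (y axis) in each of the 4 libraries, and the right panel plots the share of blocks and of high-score calls (y axis, percent) by the number of libraries with a high-score call in the block. Ler replicates 1 and 2 hold the fewest and the most calls, 818 and 1299, and 64.4% of blocks hold calls of 1 library.

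High-score calls were fuzzier than the other calls of the arms. Their mean fuzziness was 41.5 bp and 42.0 bp for the Ler libraries and 41.8 bp and 41.4 bp for the top1a-2 libraries, against 39.3 bp, 39.7 bp, 37.6 bp and 38.8 bp for other arm calls. The difference was 2.79 bp ± 0.914 (SD, n = 4 libraries) and had the same sign in 4 of 4 libraries. Narrow calls, no fuzzier than 25 bp, were 2.20% ± 0.786 (SD, n = 4) of high-score calls and 7.09% ± 2.46 (SD, n = 4) of the others. Calls just below the threshold were about as broad as those just above it. Mean fuzziness over the 4 libraries was 42.2 bp at scores of 2.5 to 3 and 41.9 bp at 3 to 3.5. It was 34.4 bp under 0.5 and 38.2 bp at 10 and over. The other arm calls include these low-score, less fuzzy calls, and fuzziness did not keep rising above the threshold.

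High-score calls also stood further from their neighbours. The mean distance to the nearest call of the same list was 549 bp ± 71.2 (SD, n = 4) for high-score calls and 309 bp ± 25.4 (SD, n = 4) for other arm calls, longer in 4 of 4 libraries. By score class it was 244 bp under 0.5, 359 bp at 1 to 2, 508 bp at 2.5 to 3 and 557 bp at 3 to 3.5. At 5 to 10 it was 439 bp, and at 10 and over 417 bp. The distance thus rose already below the threshold and was shorter again at the highest scores. A neighbour nearer than 200 bp was found for 1.94% ± 1.02 (SD, n = 4) of high-score calls and 15.1% ± 3.96 (SD, n = 4) of the others. Whole blocks were likewise sparse, with 2.38, 1.89, 2.61 and 2.28 calls per kb in Ler replicates 1 and 2 and top1a-2 replicates 1 and 2, against 2.80, 2.53, 3.0 and 2.81 on the rest of the arms. Blocks were less densely filled with calls than the rest of the arms in 4 of 4 libraries.

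The sizes of high-score calls were spread to both sides of the usual length. Their mean size was 148.5 bp ± 4.29 (SD, n = 4), 3.95 bp ± 3.42 above that of other arm calls and higher in 4 of 4 libraries. That difference was 1.30 bp with calls of 50 to 250 bp and 1.58 bp at a score threshold of 4, with exact sign-flip permutation p of 0.5 and 0.625, so it did not keep its sign in every library there. The SD of size over calls was 54.1 bp on average over the 4 libraries, against 28.2 bp for other arm calls. Calls under 100 bp made up 14.0% ± 2.16 of high-score calls and 4.15% ± 0.941 of the others, and calls over 200 bp made up 12.6% ± 4.11 against 2.81% ± 0.836 (SD, n = 4 libraries each). These lengths are shorter and longer than a fragment from the excised mononucleosome band, and they are the caller's assignment rather than measured fragments.

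The votes of high-score calls were slightly better balanced between strands. Vote imbalance, the absolute difference of forward and reverse votes over their sum, was 0.256 ± 0.0473 (SD, n = 4) for high-score calls and 0.274 ± 0.0401 (SD, n = 4) for other arm calls, lower in 4 of 4 libraries. By score class its mean over the libraries was 0.338 under 0.5, 0.271 at 0.5 to 1, 0.242 at 1 to 2 and 0.229 at 2.5 to 3. High-score calls were thus less balanced on average than the calls just below the threshold. The positions of high-score calls recurred less often: 18.1% ± 2.86 (SD, n = 4) had a call of any score within 20 bp in another library, averaged over the 3 other libraries, against 22.4% ± 0.634 (SD, n = 4) of other arm calls. Blocks held fewer calls per kb in every library, as given above, and the share was not adjusted for that. For fuzziness, size, imbalance, distance, position and the left-out score described further on, the exact two-sided sign-flip permutation test gave p = 0.13 each, the smallest that 4 libraries allow, and 0.13 after Benjamini-Hochberg adjustment over these 6 comparisons. With the threshold at 4 the signs of the imbalance and position differences turned, to 0.0744 and 5.06 percentage points.

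Calls of very high score had other properties than those near the threshold, seen when arm calls were grouped by score. Mean fuzziness was 32.6 bp to 35.8 bp in the 4 libraries for scores under 0.5 and 41.6 bp to 42.3 bp between 3 and 3.5, and then 36.3 bp to 39.1 bp at 10 and over. The share within 20 bp of a call in another library was 13.4% to 18% between 3 and 3.5 and 40.2% to 48.8% at 10 and over. Vote imbalance was 0.197 to 0.271 and 0.451 to 0.536 in the same 2 classes. Calls at 10 and over were thus the more strand-biased and the better aligned between libraries, without overlap of the 2 classes' library ranges. Calls under 100 bp made up 31.0% to 52.0% of them, and the SD of their size was 95.3 bp to 123 bp.

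Between genotypes the high-score calls overlapped in their mean fuzziness, size and vote imbalance. The top1a-2 libraries had a mean fuzziness of 41.6 bp ± 0.294 (SD, n = 2) and the Ler libraries one of 41.7 bp ± 0.364 (SD, n = 2). Mean size was 147.3 bp ± 4.27 for top1a-2 and 149.8 bp ± 5.50 for Ler, and vote imbalance was 0.260 ± 0.0523 and 0.252 ± 0.0624 (SD, n = 2 each). All 3 ranges overlapped, and the exact two-sided permutation test gave p = 0.667 for each, with 0.667 after Benjamini-Hochberg adjustment over the 3, where the smallest p that 2 against 2 libraries allow is 0.33. The direction of all 3 differences turned when a library was left out, as given in the closing section.

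The other arm calls were less fuzzy in top1a-2 than in Ler by 1.30 bp, and both top1a-2 libraries lay below both Ler libraries. The gap between high-score and other calls was 3.35 bp ± 1.11 (SD, n = 2) among top1a-2 and 2.22 bp ± 0.0542 (SD, n = 2) among Ler libraries, without overlap, with an exact permutation p of 0.33. The SD of size over high-score calls was smaller in top1a-2, at 50.9 bp and 47.2 bp, than in Ler, at 62.7 bp and 55.5 bp, also without overlap. The SD over other arm calls had the same order, at 27.2 bp and 25.7 bp in top1a-2 and 30.9 bp and 28.9 bp in Ler. High-score calls under 100 bp were fewer in top1a-2, at 11.8% and 12.6%, than in Ler, at 16.0% and 15.8%, again without overlap and with an exact permutation p of 0.33. Other arm calls under 100 bp showed the same order, at 3.76% and 3.1% in top1a-2 and 5.29% and 4.45% in Ler. The lower share of short calls in top1a-2 was thus also seen outside the high-score calls.

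The 4155 calls formed 1488 blocks, which together covered 1719 kb or 1.87% of the 92.2 Mb of arm. Of these blocks, 718 were a lone call, 447 were longer than 1 kb, 82 were longer than 5 kb and 15 were longer than 10 kb, and the longest measured 40130 bp. Chromosome 1 held 546 blocks, chromosome 2 held 133, chromosome 3 held 272, chromosome 4 held 211 and chromosome 5 held 326. Per Mb of arm this came to 21.9, 9.27, 15.1, 15.9 and 15.1, so chromosome 1 had the highest density and chromosome 2 the lowest.

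Blocks were not gathered at the ends of the chromosomes. The first and last 500 kb held 4.44% of blocks and 5.48% of the arm windows. The arm next to the pericentromere, 2.5 to 4 Mb from its midpoint, held 14.9% of all blocks and 15.8% of the arm windows, but 27.8% of the blocks with calls in all 4 libraries.

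Few blocks recurred. Calls of 1 library made up 958 blocks (64.4%), 341 held calls of 2 libraries, 117 held calls of 3 and 72 (4.84%) held calls of all 4. These 72 blocks held 1035 high-score calls, 24.9% of the total, and had a median length of 3820 bp, against 1111 bp for blocks of 2 libraries. As background, a 10 kb arm window held a high-score call in 5.40% and 8.07% of cases in Ler and 6.40% and 6.80% in top1a-2. Recurrence did not follow genotype: both Ler libraries and neither top1a-2 library shared 43 blocks, and both top1a-2 libraries and neither Ler library shared 47. Ler replicates 1 and 2 shared 36.5% and 24.7% of their blocks with each other, and top1a-2 replicates 1 and 2 shared 33.0% and 31.3%. Ler replicate 2 and top1a-2 replicate 2, of different genotype, shared 34.0% and 39.1%.

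The score of a block in a library that had no part in choosing it was tested directly. Blocks were built from 3 lists, and the calls of the fourth in them had a mean score of 2.19 and 2.54 times the arm median in Ler replicates 1 and 2, and of 2.30 and 2.5 in top1a-2 replicates 1 and 2. Calls elsewhere on the arms had 1.08, 1.11, 1.09 and 1.11 times the median. The difference was 1.29 ± 0.151 (SD, n = 4) and was positive in 4 of 4 libraries, with an exact sign-flip permutation p of 0.13. Each library also helped to build the blocks for the others, so the 4 differences, their SD and this p do not rest on independent values. A block with calls of 1 of the other libraries held a high-score call of the left-out library in 10.9% to 18.7% of cases, a block of 2 in 26.0% to 33.6%, and a block of 3 in 63.1% to 76.9%. The more libraries a block came from, the higher was its share in the library left out, with no overlap between these ranges. Blocks of more libraries were also longer. Among the 1488 blocks of the 4 lists, median lengths were 1 bp, 1111 bp and 2880 bp for blocks of 1, 2 and 3 libraries. A longer block has more room for a call, and the shares were not matched for length.

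**Figure D2:**
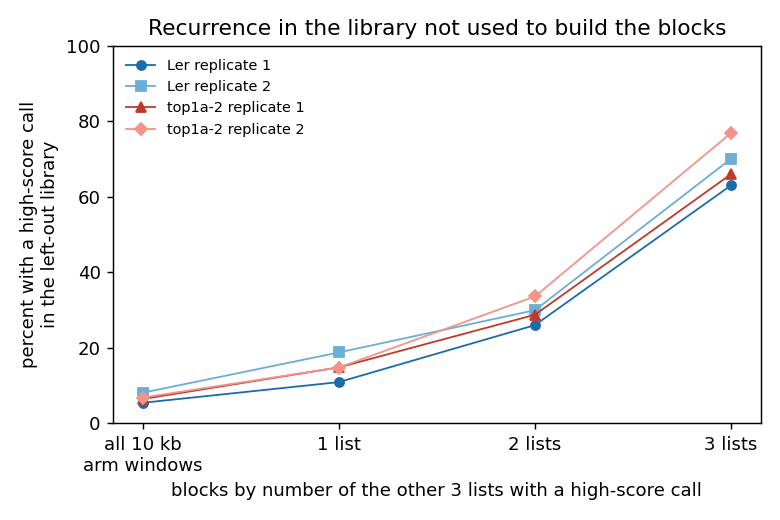
The x axis gives all 10 kb arm windows first, as background, and then blocks by the number of the other 3 libraries with a high-score call. The y axis gives the percent with a high-score call in the left-out library, with a line for each library left out. Blocks from 3 libraries held a high-score call of the fourth in 63.1% to 76.9% of cases.

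Calls in blocks of all 4 libraries were less fuzzy and more strand-biased than lone calls. Their fuzziness was 40.6 bp ± 0.458 against 42.2 bp ± 0.659, and their vote imbalance 0.304 ± 0.0466 against 0.226 ± 0.0450 (SD, n = 4 libraries each). Both had the same sign in 4 of 4 libraries, with an exact sign-flip permutation p of 0.13. Their nearest call lay at 462 bp ± 53.3 against 567 bp ± 68.8, and 25.8% ± 3.07 against 13.9% ± 1.54 lay within 20 bp of a call in another library. Blocks were defined by the calls near them, in their own and in other libraries, so these distances and shares are a description with no test. Calls in blocks of all 4 libraries also scored higher, with medians of 4.09 and 3.90 in Ler and 4.10 and 3.82 in top1a-2. Lone calls had medians of 3.15 and 3.17 in Ler and 3.17 and 3.19 in top1a-2. Fuzziness and imbalance varied with score, as given above, and neither comparison was matched for score.

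High-score calls in pericentromeres differed from those on the arms in the same direction as the recurrent blocks. Pericentromeric calls of a score of 3 or more had a mean fuzziness of 39.8 bp ± 0.0800 against 41.6 bp ± 0.288 on the arms, and a mean size of 134.8 bp ± 2.17 against 148.5 bp ± 4.29 (SD, n = 4 libraries each). Their vote imbalance was 0.356 ± 0.0189, against 0.256 ± 0.0473 on the arms. All 3 differences had the same sign in 4 of 4 libraries, with an exact sign-flip permutation p of 0.13 each. Of the 517 blocks that the same rule formed in pericentromeres, 24.0% held calls of all 4 libraries, against 4.84% on the arms.

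The block with the most high-score calls was also the longest, on chromosome 1 from 9497701 to 9537830. It held 43 and 38 high-score calls in Ler and 42 and 35 in top1a-2. The mean score of all its calls was 6.55 and 6.93 times the arm median in Ler and 5.59 and 5.54 in top1a-2, while the 100 kb on each side had 1.30, 1.29, 1.30 and 1.41 times the median with 1, 4, 5 and 2 high-score calls. The score inside was thus several times that of the flanks in every library. Inside it lay 1.70 and 1.43 calls per kb in Ler and 2.24 and 2.12 in top1a-2, against 2.37, 2.28, 2.62 and 2.40 in the flanks.

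The mean score per call of this block was lower in top1a-2, without overlap of the genotypes, at a log2 ratio of -0.28. The block held 70 and 59 calls in Ler and 92 and 87 in top1a-2. The lower mean therefore does not by itself show a lower summed score. The parts of the block did not all share the order of the mean scores. In the part 10 to 20 kb left of its centre, from 9497766 to 9507765, both top1a-2 libraries scored higher, at 9.14 and 9.43 times the arm median against 7.36 and 6.18 in Ler. The opposite gap was widest in the part 10 to 20 kb right of its centre, from 9527766 to 9537765. There the Ler libraries held 4 and 7 high-score calls and a mean score of 2.83 and 5.38 times the arm median, and the top1a-2 libraries held 0 and 0 and a score of 1.92 and 1.57. The top1a-2 libraries had more calls there, 24 and 29 against 14 and 8, so summed scores need not follow that gap.

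**Figure D3:**
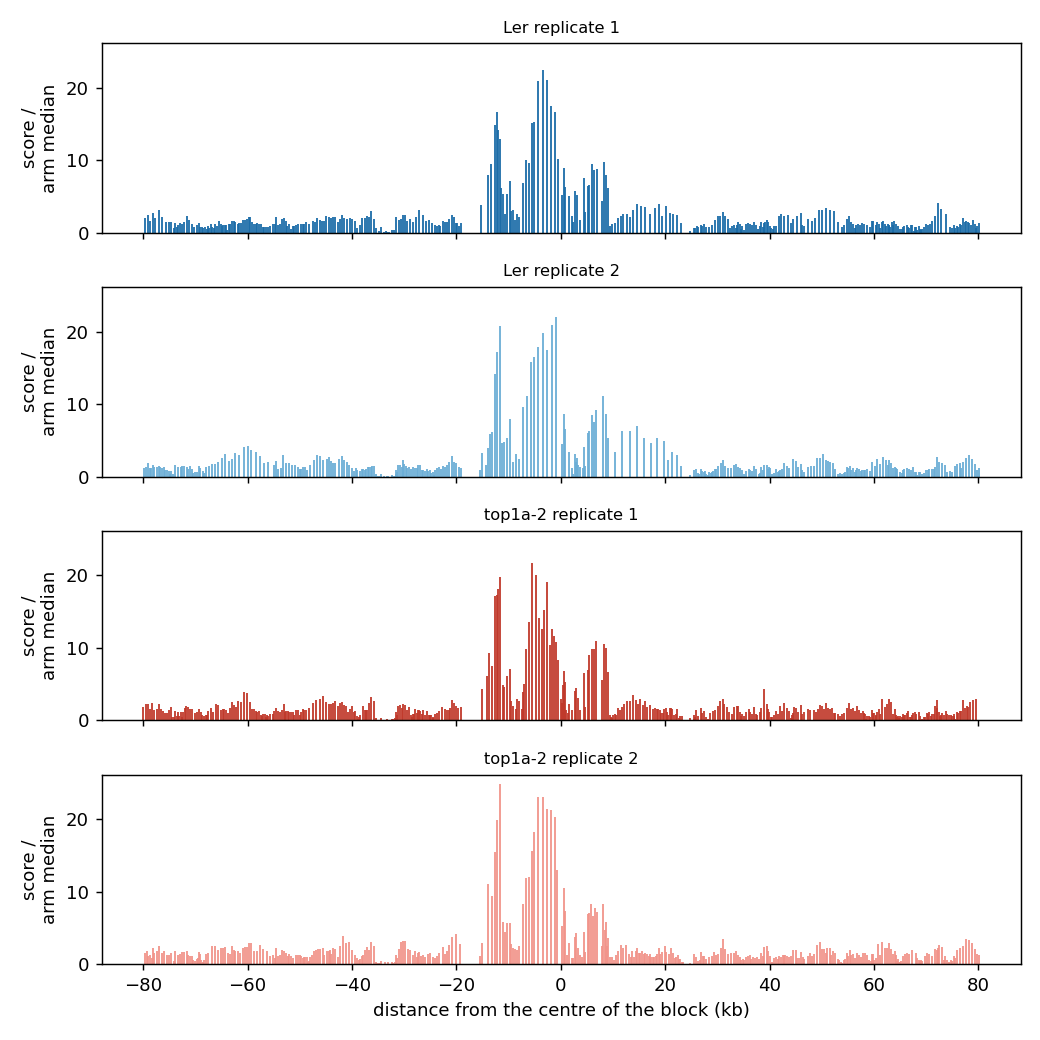
The y axis plots the score of each call over the arm median of its library, and the x axis its distance in kb from the centre of the longest block, on chromosome 1, with a panel for each library. The raised stretch stands above both flanks in every panel, and its part 10 to 20 kb right of the centre holds 4 and 7 high-score calls in the Ler panels and 0 in both top1a-2 panels.

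The highest scores of the arms lay in very few places. Of the high-score calls, 126 reached a score of 10, in 19 blocks with 44 of them in the longest block, and 16 reached 50, in 3 blocks. The 9 calls over 100 lay in 2 blocks, both of which recurred in all 4 libraries.

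The first of them was the outermost block of chromosome 2, from 1106 to 10039. The tops of chromosomes 2 and 4 of Arabidopsis abut the nucleolus organizers, long arrays of ribosomal RNA genes. Its highest calls scored 214 and 258 in Ler and 150 and 106 in top1a-2, and lay between positions 9998 and 10039. The mean score of its calls was 37.6 and 40.2 times the arm median in Ler and 27.7 and 24.5 in top1a-2, a log2 ratio of -0.58 with no overlap of the genotypes. Its calls were strand-biased, with a mean vote imbalance of 0.874 and 0.829 in Ler and 0.858 and 0.760 in top1a-2. A call there with a score of 51.6 in Ler replicate 1 was assigned a size of 0.313 bp, so sizes in this block cannot be read as nucleosome lengths.

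The second lay on chromosome 5 from 3228142 to 3228251, with highest scores of 226 and 161 in Ler and 157 and 109 in top1a-2. In Ler replicate 2 and both top1a-2 libraries these calls lay at 3228251, 3228249 and 3228250, each with a fuzziness of 19 bp and with sizes of 25.4 bp, 21.8 bp and 22.7 bp. In Ler replicate 1 the call lay at 3228142 with a fuzziness of 107 bp and a size of 115 bp. The highest calls of 3 libraries thus lay within 2 bp of each other, and that of the fourth was further to the left, fuzzier and longer.

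The other blocks with the most high-score calls were less extreme. The block on chromosome 5 from 9131155 to 9134612 held 10, 8, 11 and 9 high-score calls in Ler replicates 1 and 2 and top1a-2 replicates 1 and 2, among 11, 11, 13 and 10 calls in all. Its score was 6.03 and 5.48 times the arm median in Ler and 6.23 and 6.60 in top1a-2, and the mean size of its calls was 113 bp and 118 bp in Ler and 122 bp and 110 bp in top1a-2. Nearly every call in it was of high score, and its calls were shorter than the arm mean in all 4 libraries. The next 7, with 20 to 31 high-score calls each, started at 4080191 on chromosome 5, at 13238891 and 1293856 on chromosome 4, at 3388016, 5506360 and 6962302 on chromosome 1 and at 6778161 on chromosome 2.

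Among these 7, the block on chromosome 1 from 6962302 to 6966834 had the highest ratio, with 3 and 2 high-score calls in Ler and 7 and 8 in top1a-2. Its score was 3.07 and 2.67 times the arm median in Ler and 4.36 and 4.66 in top1a-2, a log2 ratio of 0.65. The genotypes did not overlap there. The block on chromosome 4 from 1293856 to 1300054 went the other way in number, with 10 and 7 high-score calls in Ler and 4 and 3 in top1a-2, while its score of 3.35 and 3.30 in Ler lay between the 6.41 and 2.92 of the top1a-2 libraries. The longest blocks after these lay on chromosome 1 from 5532301 to 5550432, on chromosome 2 from 11272614 to 11287369 and on chromosome 4 from 8374000 to 8385517, and held 9, 9 and 5 high-score calls of 3, 4 and 2 libraries.

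Over the 72 blocks that recurred in all 4 libraries, the score of top1a-2 over Ler, each relative to the arm median, had a median log2 ratio of 0.08. Of these blocks 43 lay above 0, and the ratios ran from -0.70 to 1.75. The median absolute log2 ratio was 0.27 between genotypes, 0.24 between the Ler libraries and 0.32 between the top1a-2 libraries. The first compares means of 2 libraries and the others single libraries, so their sizes are not directly comparable. Both top1a-2 libraries lay above both Ler libraries in 20 blocks (27.8%) and below them in 10 (13.9%), where 18.3% and 14.8% of the 5 kb windows of the whole genome did so. The median log2 ratio was -0.0195 without top1a-2 replicate 2 and 0.18 without Ler replicate 2. The threshold of 3 stood on average at 3.72 times the arm median in top1a-2 and at 3.52 times in Ler. With scores as deposited, not divided by the arm median, the median log2 ratio was -0.0019. The median of 0.08 was thus not seen in the deposited scores. The counts above 0 and without overlap were not repeated on them.

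The higher ratios lay in short blocks. More than 2-fold higher scores in top1a-2 were found in 9 of the 72 blocks (12.5%), where 0.377% of 5 kb windows and 0.724% of 2 kb windows of the whole genome passed the same fold, and no block was more than 2-fold lower, where 0.091% of 5 kb and 0.449% of 2 kb windows were. All 9 were shorter than 2 kb, and in all 9 both top1a-2 libraries lay above both Ler libraries. Blocks and windows differ in length and in their number of calls, and the 9 were picked by their ratio, so these shares are set side by side without a test. In 5 of the 9, each library had at least 3 calls, and in the other 4 some library had fewer.

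**Figure D4:**
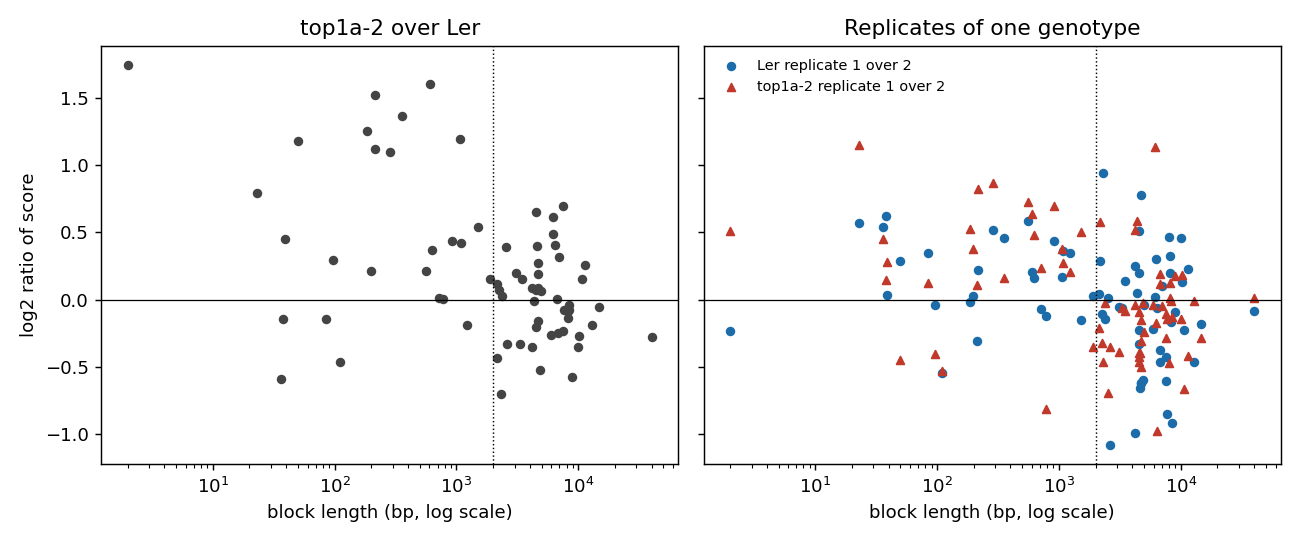
Both panels plot a log2 score ratio (y axis) against block length (x axis, bp, log scale) for the blocks that recurred in all 4 libraries. The left panel gives top1a-2 over Ler, and the right panel gives replicate 1 over 2 of each genotype. The 9 blocks above a log2 ratio of 1 between top1a-2 and Ler were all shorter than 2 kb.

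The 3 highest ratios among blocks with at least 3 calls in each library lay on chromosomes 5, 1 and 3. The block on chromosome 5 from 8064864 to 8065465 scored 6.67 and 5.79 times the arm median in Ler and 23.1 and 14.8 in top1a-2, a log2 ratio of 1.61. The block on chromosome 1 from 11049015 to 11049199 scored 4.77 and 4.83 in Ler and 13.5 and 9.39 in top1a-2, a log2 ratio of 1.26. The block on chromosome 3 from 7075986 to 7077049 scored 13.4 and 11.9 in Ler and 32.7 and 25.1 in top1a-2, a log2 ratio of 1.20. In each of them the lower top1a-2 library stood well above the higher Ler library, and their highest calls in top1a-2 reached 39.7, 26.7 and 72.8.

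The 3 lowest ratios under the same rule were smaller. Beside the outermost block of chromosome 2, they were the block on chromosome 4 from 9240902 to 9243206 and the block on chromosome 1 from 24693520 to 24698391. The former scored 6.19 and 3.22 in Ler and 2.43 and 3.35 in top1a-2, a log2 ratio of -0.70, and its genotypes overlapped. The latter scored 2.42 and 3.66 in Ler and 2.09 and 2.13 in top1a-2, a log2 ratio of -0.53, without overlap. These scores are means per call, and the numbers of calls differed. The former block held 4 and 8 calls in Ler and 12 and 8 in top1a-2, and the latter 11 and 7 against 15 and 14. Their low ratios therefore do not by themselves show a lower summed score in top1a-2.

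Short and long recurrent blocks were then set apart at 2 kb, a limit chosen after their ratios were seen. The 26 shorter blocks had a median log2 ratio of 0.43 with 21 above 0, and the 46 longer ones a median of -0.03 with 22 above 0. Both top1a-2 libraries lay above both Ler libraries in 15 of the shorter and 5 of the longer blocks, and below them in 1 and 9, where 17.1% and 15.6% of 2 kb windows of the whole genome lay above and below. In the shorter blocks the median absolute log2 ratio was 0.26 between the Ler libraries and 0.45 between the top1a-2 libraries. The median of the longer blocks was above 0 under some alternatives, at 0.19 with summed scores, 0.10 with the highest score and 0.09 without Ler replicate 2, where that of the shorter blocks was 0.39, 0.56 and 0.25. With scores as deposited the medians were 0.35 for the shorter and -0.10 for the longer blocks. The difference between short and long blocks was not tested, because the split followed from the values.

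The shorter blocks also held calls of another shape. The highest call of each library was under 100 bp in 49.0% of cases in the shorter blocks and 20.7% in the longer ones, and had a fuzziness of up to 25 bp in 24.0% and 3.26%. In the 9 blocks more than 2-fold higher in top1a-2, the highest calls had a median size of 37.4 bp, a median vote imbalance of 0.673 and a median score of 12.4. Of these 36 calls, 25 were under 100 bp and 8 were over 200 bp. When only calls of 50 to 250 bp were kept, 3 of 55 blocks were more than 2-fold higher. The part that these call sizes have in the ratio was not tested beyond that.

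A fit across all windows of the genome was made for the background. limma on the log2 mean score of 11550 windows of 10 kb called 8 (0.0693%) at a Benjamini-Hochberg adjusted p of 0.05, 7 of them higher in top1a-2, and 568 (4.92%) at an unadjusted p of 0.05. A window that did not pass with 2 libraries of each genotype is not thereby shown to be without change. Of the 1613 tested windows that held a high-score arm call, 2 passed, and since the score both chose these windows and was the value fitted, they are given as a description.

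The window that passed as higher lay on chromosome 3 from 11480001 to 11490000 and held the recurrent block from 11486693 to 11486905. Its mean score was 0.944 and 0.911 times the arm median in Ler and 2.55 and 1.60 in top1a-2, a log2 change of 1.12 ± 0.23 (SE). The block itself, with 2 to 4 calls in each library, scored 2.79 and 3.47 in Ler and 9.32 and 8.66 in top1a-2. The window that passed as lower lay on chromosome 2 from 20001 to 30000 and scored 0.978 and 0.865 in Ler and 0.527 and 0.430 in top1a-2, a log2 change of -0.95 ± 0.19 (SE). It rested on 6, 3, 3 and 5 calls, close to the minimum of 3. Neither window passed when windows of 5 kb were fitted, or when a single call in each library was enough to test a window. The number of windows with a high-score arm call that passed was 11 without Ler replicate 1 and 8 with the replicate number as a block.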

How the data were processed

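The 4 deposited lists, from 2 Ler and 2 top1a-2 libraries grouped by sample title, hold nucleosome calls with position, fuzziness and size in bp, a confidence score, and forward and reverse votes, per the file headers. The score and the votes are the authors' deposited values on a scale not given in the sources used here. Nor do these sources name the aligner, caller or build, or say from which base positions are counted. The lists hold no read counts, so depth is unknown and no counting interval can be given. The 4 lists hold 315744, 286541, 335395 and 315609 calls for Ler replicates 1 and 2 and top1a-2 replicates 1 and 2.

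Arms, high-score calls and blocks followed the rule given at the opening, and the members, lists and limits were chosen with earlier results of these data known. Block scores were the mean over all calls with 500 bp added at each side, divided by the library's arm median (0.863, 0.843, 0.826 and 0.788). A library recurred in a block when it had a high-score call there. Measures outside the rule, and vote imbalance, were compared within libraries by exact sign-flip permutation and between genotypes by exact permutation. Window scores were log2-transformed and fitted with limma 3.58.1 (R 4.3.3) with a variance trend, on 10 kb windows with at least 3 calls in each library, with Benjamini-Hochberg adjustment. The scripts were tested on simulated data. Python 3.11.15 and scipy 1.17.1 were used otherwise. Named regions were the 10 recurrent blocks with the most high-score calls, the 3 longest others, the 3 highest and 3 lowest ratios with at least 3 calls in each library, and windows that passed limma and held a high-score call. The chromosome 5 block of very high scores and the counts of the 9 blocks were singled out after their values were seen. A gene table of another assembly was not used, so no gene is named.

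The replicate numbers in the titles are shared by the genotypes, but no batch or pool is named behind them.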

Additional observations from a re-analysis of the deposited data

How the results depend on the processing

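Of 156 alternative values, 120 kept their direction or, for counts and untested values, stayed within 1.5 times the count or 1 SD of the value. For tested differences just the sign was judged, not the p-value. The cause was not tested for the values that did not stay. Sizes of tested differences still moved: against other arm calls, fuzziness (2.79 bp) was 1.44 bp and the left-out score (1.29) was 3.31 at a threshold of 4, and the size difference between genotypes (-2.58 bp) was -0.0359 bp there. The fuzziness difference between genotypes, -0.172 bp, became 0.0350 at a threshold of 2.5, 0.0466 with calls of 50 to 250 bp, 0.0291 over block means and 0 by medians, and ran from -0.429 to 0.0856 when each library was left out. The differences in size and imbalance then ran from -6.47 bp to 1.31 bp and from -0.0360 to 0.0523. Against other arm calls, imbalance and position recurrence turned to 0.0744 and 5.06 at a threshold of 4. Blocks numbered 3460 at a threshold of 2.5 and 221 at 4, of which 377 and 26 were in all 4 lists, and 91 to 111 were in all 3 lists left when each library was dropped. The median log2 ratio of 0.08 became 0.22 with summed scores, 0.19 with the highest score, 0.14 without added bases, 0.19 at a threshold of 4, 0.0073 at 2.5 and 0.0196 over all blocks, and ran from -0.0195 to 0.18 when each library was left out. With scores as deposited, added after seeing the data, it was -0.0019. Blocks over 2-fold higher, an outcome added after seeing the data, numbered 65 among all 1487 blocks with a call in every library (31 were over 2-fold lower), 3 with calls of 50 to 250 bp and 6 to 12 when each library was left out.

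Windows called by limma numbered 8, and 0 in 5 kb windows (1014 at an unadjusted p of 0.05), 4 with at least 1 call, 27 without a variance trend, 4 after quantile normalization and 6 to 30 when each library was left out (30 without Ler replicate 1, 22 without top1a-2 replicate 1, 18 without top1a-2 replicate 2). With the replicate number as a block it was 49, of which 8 held a high-score arm call, and the median block ratio over same-numbered libraries was 0.09. The numbers share only a label: deviations of same-numbered libraries correlated at 0.207 over 11550 windows, from 2 pairs. The unknown read depth limits all counts of calls.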
